A study of Mus musculus with 12 samples.

Results

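The 10 genes described here encode the core of the interleukin-1 system and its inflammasome: the cytokines Il1a, Il1b and Il18, the antagonists Il1rn and Il18bp, the receptor chains Il1r1 and Il1rap, the decoy receptor Il1r2, the sensor Nlrp3 and the protease Casp1. They were taken by symbol from a table of 28293 mouse genes, in which all 10 were found. RNA sequencing of poly(A) RNA measured them in cultured osteoclast precursor cells grown from the bone marrow of wild-type male C57BL/6J mice aged 6 months. The 6 RANKL libraries came from cells given 25 ng/ml RANKL, and the 6 RANKL+Dex libraries from cells given the same RANKL with 10 nM dexamethasone, a synthetic glucocorticoid, for 24 h. All cells first spent 3 days with M-CSF at 10 ng/ml, and M-CSF stayed in the induction medium, so no group lacked either factor. The wording of the protocols does not settle whether the 24 h followed an earlier period in RANKL. Each group held 1 library from each of batches 1 to 6, as the labels number them. The labels do not tie cultures to single animals, and the p-values therefore reflect variation among cultures that may share an animal. Per the labels the steroid stands for a disease setting (GIONFH) in vitro, so these are cultured cells and not bone of treated animals.

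Interleukin-1 alpha and beta bind the type I receptor, which signals only after it recruits the accessory protein. The receptor antagonist occupies the same receptor without that recruitment, and the type II receptor binds ligand but lacks the signalling domain. Interleukin-1 beta and interleukin-18 are made as precursors that caspase-1 cuts once a sensor such as NLRP3 has assembled an inflammasome, and interleukin-18 binding protein neutralises the mature interleukin-18. In bone, interleukin-1 is known as a cytokine that raises osteoclast formation and activity, and glucocorticoids are known to restrain its production by macrophages.

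Library totals ran from 16820193 to 28523595 counts, with 20252 to 21776 genes detected. The osteoclast list, which includes Ctsk, Acp5 and Mmp9, took 4.83% to 5.09% of counts in RANKL and 4.92% to 5.25% in RANKL+Dex. These are genes of differentiating and mature osteoclasts, so their level does not tell precursors from later cells. Of its 10 genes 5 rose and 1 fell at an edgeR adjusted p under 0.05. Among all 13775 tested genes 7.98% rose and 7.55% fell, shares that stand beside each count of markers here. Mmp9, the most abundant, was at 23115 and 22258 CPM (edgeR adjusted p = 0.418). Calcr rose from 97.4 to 272 CPM (1.3e-09) and Ctsk from 14401 to 16497 CPM (1.1e-04). The 1 that fell was Itgb3, from 1157 to 1042 CPM (0.0132). The macrophage list took 0.587% to 0.874% and 0.569% to 0.874%, and 2 of its 8 genes fell. Of the 6 monocyte markers tested 2 rose and 3 fell. Chil3 rose from 2.75 to 15.5 CPM and F13a1 from 1.275 to 7.54 CPM, while the most abundant, Vcan, was at 55.2 and 43.1 CPM (edgeR adjusted p = 0.142, and 1.2e-04 with the batch as a block). Neutrophil markers (13 of 15 listed found, none at or under 3 counts in all) were scarce and lower with dexamethasone: their share was 0.00446% to 0.00849% in RANKL and 0.00210% to 0.00339% in RANKL+Dex (exact two-sided permutation test, adjusted p = 0.0119 over 11 marker lists). Mmp8, the most abundant, fell from 26.8 to 15.02 CPM, Ngp from 10.2 to 1.91 and S100a9 from 6.93 to 1.69 CPM, with edgeR adjusted p of 0.0048, 1.8e-07 and 5.5e-07. The endothelial share was also lower (0.00390% to 0.00491% against 0.00263% to 0.00344%, exact permutation, adjusted p = 0.0119). Most of these counts were of 1 gene, Vwf, which fell from 40.0 to 28.0 CPM (edgeR adjusted p = 1.9e-04). Of 4 endothelial markers tested 3 fell. The scarce Emcn and Tek went up, from 5 to 13 and from 1 to 7 counts, and were below the count filter. The permutation adjusted p of the other 9 lists ran from 0.107 to 0.766. In a bulk culture, fewer cells of a type and less RNA per cell cannot be told apart.

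Dexamethasone raised the signalling receptor gene Il1r1 and lowered the antagonist gene Il1rn. No other gene of the 8 that could be tested passed. Levels are given as CPM, that is, counts scaled to a common library size. Il1r1 rose 1.87-fold and Il1rn fell to 0.766 of its RANKL level. Il1a and Il1b had too few counts for the fit and were near the detection limit in both groups. Across all 13775 tested genes 15.5% passed the same test (edgeR quasi-likelihood, Benjamini-Hochberg adjusted p under 0.05), 7.98% higher and 7.55% lower. Among the 8 genes 2 passed, 1 higher and 1 lower. Their median log2 fold change was 0.10, against −0.0034 over all tested genes.

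**Figure D1:**
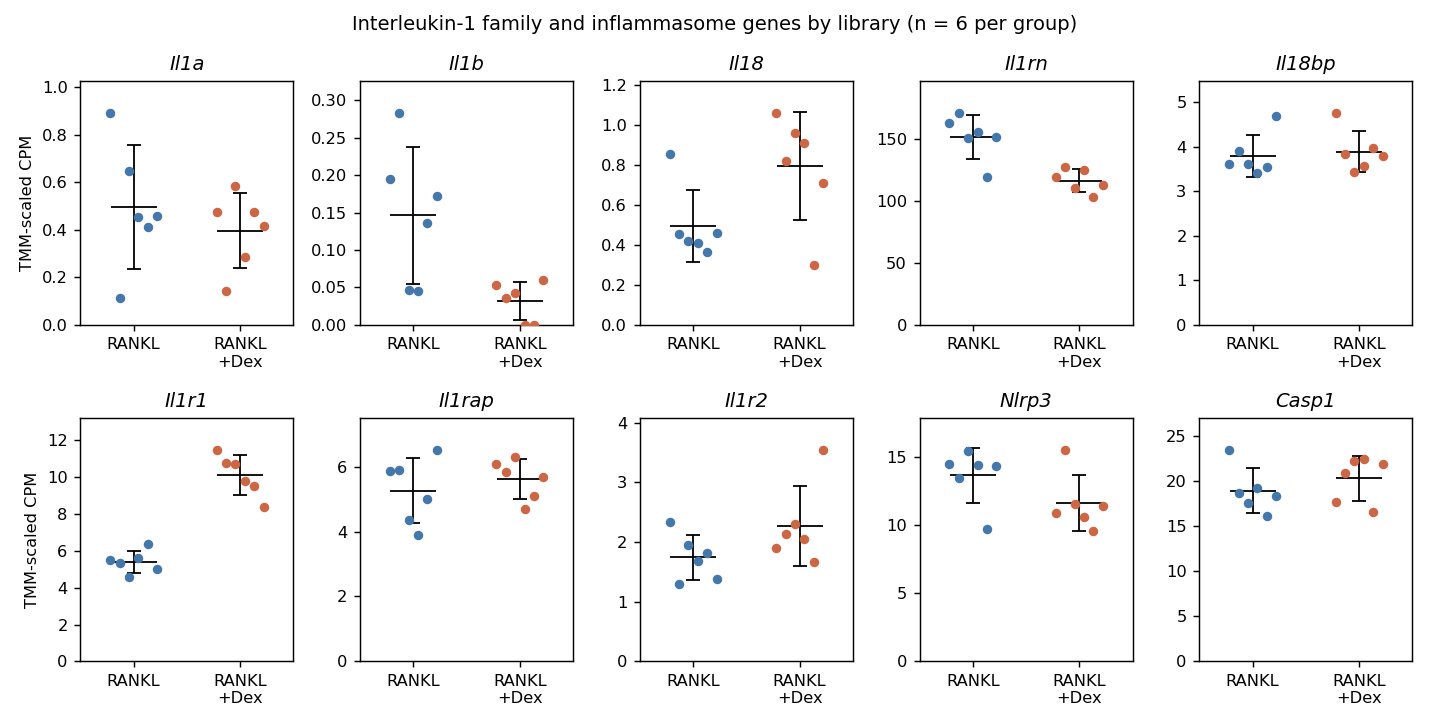
Level of each of the 10 genes in every library, in CPM scaled by TMM factors (y axis, from 0, own scale for each gene), with points for the 6 RANKL and 6 RANKL+Dex libraries and a bar with whiskers for mean ± SD. The 2 groups are apart for Il1r1 and overlap for the other 9 genes.

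The windows of 250 bases before the annotated starts of the 2 genes that changed are shown because regulators of a gene often bind there. They come from RefSeq (GRCm38.p6, while the counts were made on GRCm39), 5′ to 3′ on the strand of the gene, with motif matches in capitals. Il1r1 has 2 listed starts, at chr1:40224830-40225079 and chr1:40266336-40266585, both on the plus strand. Of the 3 listed for Il1rn starts 1 and 3 are shown, at chr2:24336610-24336859 and chr2:24345121-24345370 on the plus strand. Start 2 of Il1rn (chr2:24345041-24345290) is not shown because its window held no motif match. That window overlaps the one of start 3, so the windows counted below are not all separate.
Il1r1, start 1: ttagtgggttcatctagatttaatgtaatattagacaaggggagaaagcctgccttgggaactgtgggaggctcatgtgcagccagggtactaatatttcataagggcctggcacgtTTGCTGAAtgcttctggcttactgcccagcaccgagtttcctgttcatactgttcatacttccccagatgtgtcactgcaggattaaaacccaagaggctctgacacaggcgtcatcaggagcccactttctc
Il1r1, start 2: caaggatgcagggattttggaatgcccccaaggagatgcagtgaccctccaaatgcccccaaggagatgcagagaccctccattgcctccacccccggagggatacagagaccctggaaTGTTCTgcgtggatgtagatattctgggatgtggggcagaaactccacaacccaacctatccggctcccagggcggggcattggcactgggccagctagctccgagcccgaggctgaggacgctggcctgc
Il1rn, start 1: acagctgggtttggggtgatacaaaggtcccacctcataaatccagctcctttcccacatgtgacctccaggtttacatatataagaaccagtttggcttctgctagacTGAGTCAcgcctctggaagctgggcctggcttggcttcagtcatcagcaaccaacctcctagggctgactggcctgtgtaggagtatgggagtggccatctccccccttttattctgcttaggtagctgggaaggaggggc
Il1rn, start 3: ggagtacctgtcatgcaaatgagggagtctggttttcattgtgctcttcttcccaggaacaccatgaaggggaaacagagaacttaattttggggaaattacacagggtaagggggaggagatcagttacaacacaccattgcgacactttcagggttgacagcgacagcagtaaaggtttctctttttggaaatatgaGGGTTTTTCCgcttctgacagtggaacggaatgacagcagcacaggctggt
The capitals mark TTGCNNAA (C/EBP), 133 bases before start 1 of Il1r1, and the glucocorticoid receptor half-site AGAACA on the opposite strand, 131 bases before start 2. They mark TGANTCA (AP-1) 141 bases before start 1 of Il1rn and an NF-kB motif 51 bases before start 3. Both strands were searched in the 14 windows of the 10 genes. The half-site was in 4 of 14 windows and in 16.1% of all 32851 promoter windows of this length, AP-1 in 2 and 6.75%, C/EBP in 2 and 9.56%, and NF-kB in 1 and 1.41%. The full glucocorticoid response element, an inverted repeat that contains the half-site, and GAGGAAGT (PU.1) were in 0 of the 14 and in 0.00913% and 2.44% of all. A match describes letters in a window and says nothing of binding.

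Il1r1 encodes the receptor through which both interleukin-1 cytokines signal. It lay at 5.51, 5.33, 4.59, 5.63, 6.38 and 5.04 CPM in RANKL replicates 1 to 6, and at 11.5, 10.8, 10.7, 9.76, 9.54 and 8.40 CPM in RANKL+Dex replicates 1 to 6. Every RANKL+Dex library was above every RANKL library, which made Il1r1 the 1 gene of the 8 whose groups were apart. Of all tested genes 7.01% had groups apart, 3.84% higher and 3.17% lower. The group mean was 5.41 ± 0.603 CPM in RANKL and rose to 10.1 ± 1.10 CPM (SD, n = 6, log2 fold change 0.90 ± 0.10 SE, edgeR adjusted p = 8.4e-06). Within batches the ratio of RANKL+Dex to RANKL ran from 1.496 in batch 5 to 2.33 in batch 3. The gene (ENSMUSG00000026072) occupies positions 40264240 to 40356417 of chromosome 1 (GRCm39, plus strand). Stromal cells are another source of this receptor, and stromal markers (9 of 10 listed found, none at or under 3 counts) took 0.000709% to 0.00234% of counts in RANKL and 0.000624% to 0.00284% in RANKL+Dex (permutation adjusted p = 0.724, exact test). The most abundant, Col1a1, was at 5.32 ± 2.34 and 2.84 ± 2.92 CPM (edgeR adjusted p = 0.298). It passed as lower with the batch as a block (0.0377) and without RANKL+Dex replicate 3 (0.0462). Of 6 stromal markers tested 2 rose and 0 fell, beside 7.98% higher and 7.55% lower among all tested genes. Dcn, which encodes the matrix proteoglycan decorin, was at 0.601 ± 0.177 CPM and 3.25 ± 1.03 CPM (2.45 ± 0.25 on the log2 scale, edgeR adjusted p = 4.2e-06). Dcn reached the level of the count filter in 4 of 6 RANKL and 6 of 6 RANKL+Dex libraries, so its RANKL libraries alone would not have admitted it. The growth factor receptor gene Pdgfrb went from 1.11 to 2.27 CPM (1.04 ± 0.26, adjusted p = 0.0112, and 0.0597 without batch 3). Their part in the Il1r1 result was not tested.

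Il1rap, whose product joins the type I receptor to form the signalling complex, did not follow it. Its levels ran from 3.91 to 6.53 CPM (median 5.44) in RANKL and from 4.71 to 6.31 CPM (median 5.76) in RANKL+Dex, and the groups overlapped (0.11 ± 0.13, edgeR adjusted p = 0.641). It was higher in 4 of 6 batches, by 1.45 times in batch 3, and lower in batches 2 and 6. The decoy receptor gene Il1r2 lay at 2.33, 1.303, 1.95, 1.68, 1.82 and 1.37 CPM in RANKL replicates 1 to 6 and at 1.91, 2.14, 2.30, 2.04, 1.66 and 3.55 CPM in RANKL+Dex replicates 1 to 6. The groups overlapped and RANKL+Dex replicate 6 stood above the rest (0.36 ± 0.20, adjusted p = 0.247, and 0.14 with adjusted p = 0.684 without batch 6). Neutrophils are known to express the decoy receptor, and the fall in neutrophil markers given above stands beside these values. Its part in them was not tested.

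**Figure D2:**
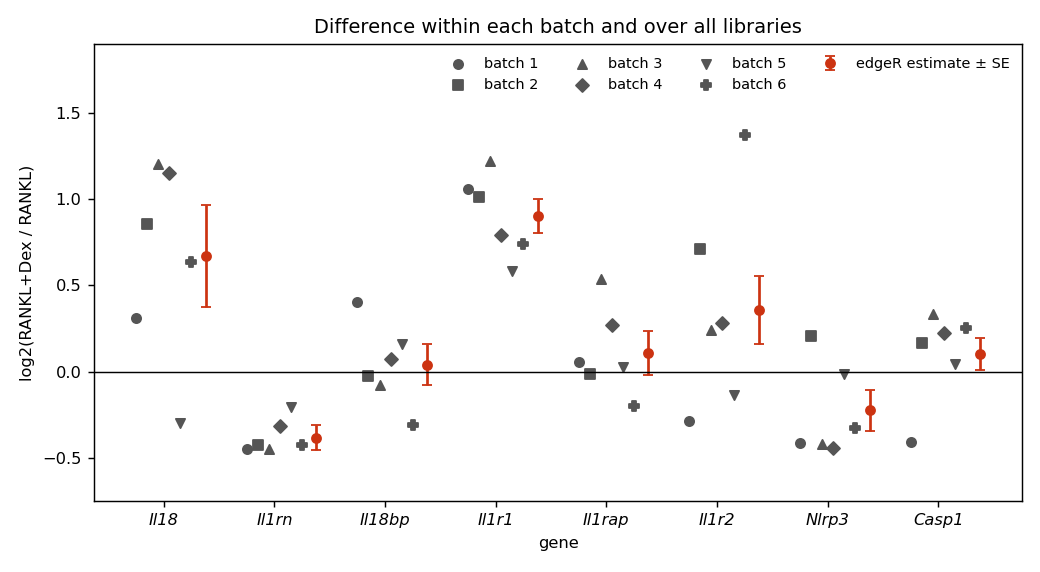
Difference between RANKL+Dex and RANKL as log2 ratio (y axis) for the 8 tested genes, with a grey symbol for each batch and a red point for the edgeR estimate with its SE. All 6 batches lie above 0 for Il1r1 and below 0 for Il1rn, and the batches of the other 6 genes lie on both sides of 0.

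Il1rn, the receptor antagonist gene, was by far the most abundant of the 10. Its levels were 163, 172, 151, 156, 119 and 152 CPM in RANKL replicates 1 to 6 and 119, 128, 111, 125, 103 and 113 CPM in RANKL+Dex replicates 1 to 6. RANKL replicate 5 lay among the RANKL+Dex libraries, and the other 5 RANKL libraries lay above all of them. The log2 fold change was −0.38 ± 0.07 (edgeR adjusted p = 0.0016), and within batches RANKL+Dex stood at 0.732 (batches 1 and 3) to 0.866 (batch 5) of RANKL. Il1rn (ENSMUSG00000026981) occupies positions 24226865 to 24241506 of chromosome 2 (plus strand). Macrophages express this antagonist, and the macrophage markers Itgam (−0.42 ± 0.09, edgeR adjusted p = 0.0043) and Mrc1 (−0.35 ± 0.09, 0.0137) were also lower in all 6 batches. The most abundant macrophage marker, Lyz2, was at 3424 ± 754 and 3054 ± 873 CPM (adjusted p = 0.564, and 0.0070 with the batch as a block). Adgre1 was lower in all 6 batches too (edgeR adjusted p = 0.228, and 1.1e-04 with the block). Csf1r, Cd68 and Fcgr1 were each higher in 5 of 6 batches (0.747, 0.574 and 0.354), and Fcgr1 passed as higher with the block (0.0403). Cd14 was higher in 3 batches and lower in 3. The share of the whole list did not pass (exact permutation, adjusted p = 0.712). The part of these markers in the Il1rn result was not tested.

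The agonist genes were close to absent. Il1b had 5, 5, 1, 1, 3 and 3 counts in RANKL replicates 1 to 6 and 1, 1, 1, 0, 0 and 1 in RANKL+Dex replicates 1 to 6. That is 18 counts against 4 in all, and no batch was higher with dexamethasone. The difference had an exact two-sided permutation p of 0.0195 on the CPM, and an edgeR adjusted p of 0.156 over all genes when no filter was used. For the 2 libraries at 0 the count allows up to 3 reads, or 0.170 and 0.178 CPM, a limit that covers counting error only and lies above the RANKL mean of 0.146 CPM. With each library left out in turn the unadjusted permutation p for Il1b ran from 0.0065 to 0.0346. Adjusted over Il1a and Il1b, it was 0.0390 with all libraries. That call ended without RANKL+Dex replicate 1, 2, 3, 4 or 5, at an adjusted permutation p of 0.0519 to 0.0693. Il1a had 23, 2, 14, 10, 9 and 8 counts in RANKL and 9, 4, 14, 5, 8 and 7 in RANKL+Dex. The groups overlapped (exact permutation p = 0.459), and RANKL replicate 1 held 23 of the 66 counts of its group. Il1a and Il1b each overlap a transcript on the other strand, Gm14023 (96 counts in all) and Il1bos (22 counts). The protocols state no strand marking, so reads of a pair cannot be told apart. Neutrophils carry Il1b, and the share of neutrophil markers fell as given above. Its part in the Il1b counts was not tested.

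Il18, the cytokine that shares caspase-1 processing with interleukin-1 beta, stayed under about 1 CPM. It had 22, 8, 9, 9, 8 and 8 counts in RANKL replicates 1 to 6 and 20, 23, 23, 16, 5 and 12 in RANKL+Dex replicates 1 to 6. RANKL replicate 1 was as high as the RANKL+Dex libraries and RANKL+Dex replicate 5 as low as the others of RANKL. The estimate was 0.67 ± 0.30 (edgeR adjusted p = 0.141), and it passed without RANKL replicate 1 (0.0458) or without RANKL+Dex replicate 5 (0.0479). Its RANKL median was 0.435 CPM, and it reached the level of the count filter in 1 RANKL and 5 RANKL+Dex libraries. That RANKL library was replicate 1, so without it Il18 could be tested only because it was high in RANKL+Dex. Il18bp, which encodes the soluble inhibitor, was at 3.41 to 4.70 CPM in RANKL and 3.42 to 4.77 CPM in RANKL+Dex (0.04 ± 0.12, adjusted p = 0.871). It overlaps Numa1 on the opposite strand, a gene with 36188 counts in all, so part of its reads could be of Numa1.

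Nlrp3, the inflammasome sensor gene, lay at 14.5, 13.5, 15.4, 14.4, 9.70 and 14.3 CPM in RANKL replicates 1 to 6 and at 10.9, 15.6, 11.5, 10.6, 9.60 and 11.4 CPM in RANKL+Dex replicates 1 to 6. It was lower in 5 of 6 batches, but RANKL replicate 5 was as low as the RANKL+Dex libraries and RANKL+Dex replicate 2 as high as RANKL. The estimate was −0.22 ± 0.12 (edgeR adjusted p = 0.229), and −0.33 with adjusted p = 0.0448 without RANKL+Dex replicate 2. Casp1 was at 23.5, 18.7, 17.6, 19.3, 16.1 and 18.4 CPM in RANKL and 17.7, 21.0, 22.2, 22.5, 16.6 and 21.9 CPM in RANKL+Dex replicates 1 to 6. It was higher in 5 of 6 batches and lower in batch 1, where RANKL replicate 1 was the highest of all libraries (0.10 ± 0.09, adjusted p = 0.523).

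The spread between libraries was set against counting error for each gene. Il1rn varied by 11.7% (coefficient of variation) in RANKL and 7.96% in RANKL+Dex, where counting alone gives 1.79% and 2.09%. Nlrp3 varied by 14.9% and 17.7% against 5.99% and 6.69%. Il18bp varied by 12.3% and 12.1%, close to the 11.3% and 11.4% of counting, and Il18 by 36.6% and 34.2% against 32.3% and 27.1%. Il1r2 varied by 21.9% and 29.4% against 16.98% and 15.3%, and Il1a by 52.4% and 40.0% against 36.4% and 37.99%.

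Levels were compared between genes per kb of exon (union of exons in GENCODE M21, matched by Ensembl ID). In RANKL, Il1rn was at 27.5 ± 3.23 CPM per kb, Casp1 at 12.7 ± 1.67 and Nlrp3 at 3.36 ± 0.501, and the ranges of these 3 did not overlap. Il18bp (1.26), Il1r2 (0.913), Il1r1 (0.851), Il18 (0.478), Il1rap (0.463), Il1a (0.251) and Il1b (0.0767 CPM per kb) followed, each overlapping its neighbour in this order. In RANKL+Dex, Il1r1 stood at 1.59 ± 0.173 CPM per kb and ranked 4, above Il18bp (1.29) and Il1r2 (1.19), with overlapping ranges. The antagonist thus exceeded each agonist in level in both groups, at 21.0 ± 1.68 CPM per kb against 0.201 for Il1a and 0.0166 for Il1b in RANKL+Dex. Union lengths exceed those of single transcripts, most for genes with many isoforms, so the order within the lower group is approximate.

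**Figure D3:**
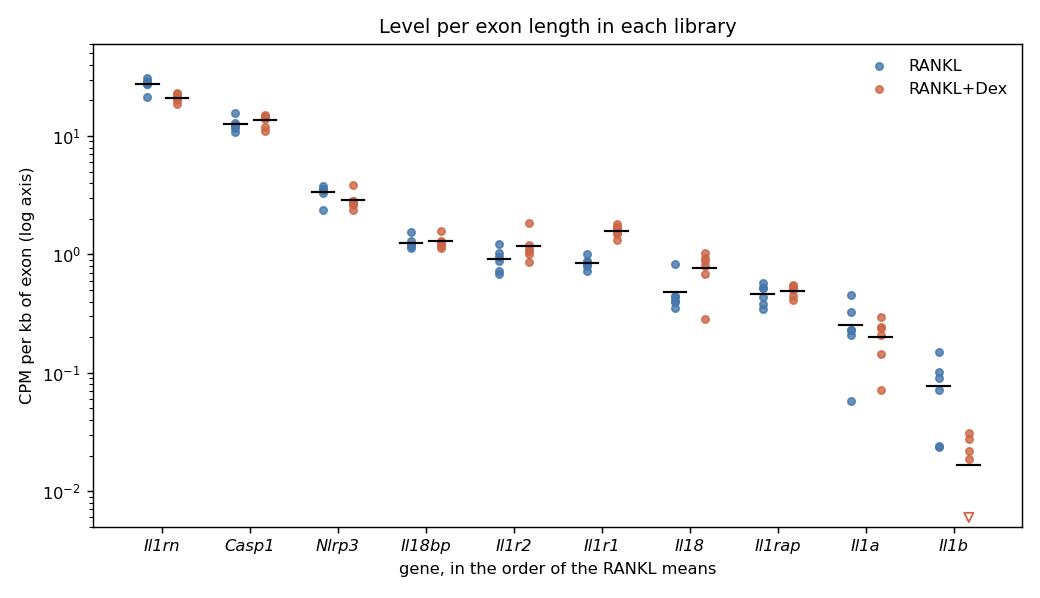
Level per kb of exon (y axis, log scale) of the 10 genes, ordered by their RANKL mean, with a point per library, a bar at the mean of the 6 libraries and an open triangle for libraries at 0. Il1rn, Casp1 and Nlrp3 stand above the rest in both groups, and Il1r1 moves from 0.851 to 1.59 CPM per kb.

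Ratios of RNA levels within a library were compared. Antagonist per receptor (Il1rn over Il1r1, both per kb) had a median of 34.3 and a range of 21.5 to 37.9 in RANKL, and a median of 13.04 and a range of 11.9 to 15.4 in RANKL+Dex. Accessory protein per receptor (Il1rap over Il1r1) went from 0.564 (0.388 to 0.726) to 0.302 (0.270 to 0.379). The groups were apart in both ratios, which share the Il1r1 values. Decoy per receptor (Il1r2 over Il1r1) had medians of 0.974 and 0.680 with overlapping ranges, since RANKL+Dex replicate 6 reached 1.41. The ratio of Il18bp to Il18 ran from 1.44 to 3.49 in RANKL and from 1.21 to 4.57 in RANKL+Dex. Antagonist per agonist (Il1rn over the sum of Il1a and Il1b) had medians of 81.3 in RANKL and 82.4 in RANKL+Dex. Its ranges overlapped (53.2 to 150 and 62.9 to 254), and it rests on the few counts of the agonist genes.

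**Figure D4:**
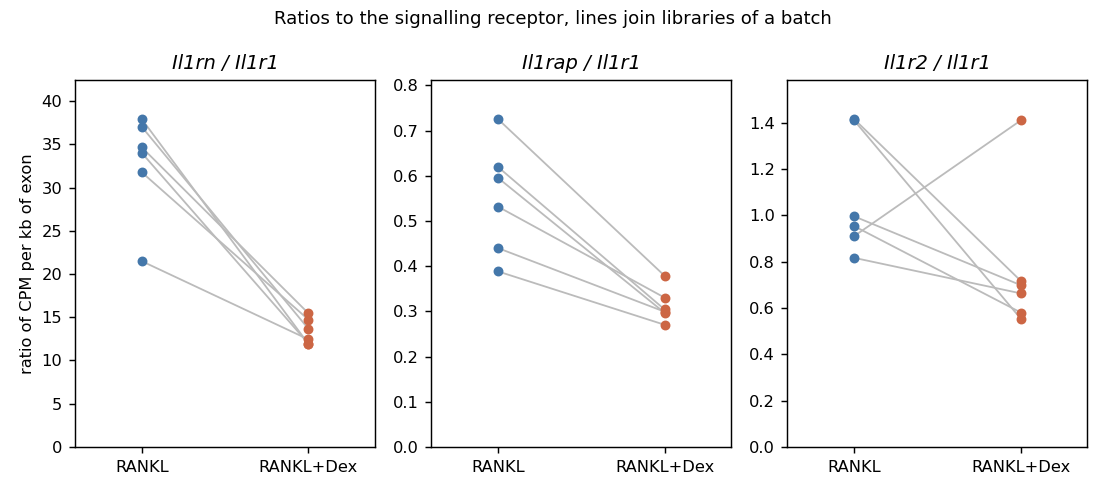
Ratios of CPM per kb of exon (y axes, from 0) of Il1rn, Il1rap and Il1r2 to Il1r1 in each library, with lines that join the libraries of a batch. Il1rn per Il1r1 lay at 21.5 to 37.9 in RANKL and 11.9 to 15.4 in RANKL+Dex, and Il1r2 per Il1r1 overlapped.

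Among the other interleukin-1 family genes, a receptor gene rose by more on the log2 scale than Il1r1. A ligand gene fell by more than Il1rn, and by a size close to that of the Il1r1 rise. The table lists 9 of 13 further ligands and receptors, of which 3 could be tested. Il1rl2, which encodes the interleukin-36 receptor and lies 7352 bases downstream of Il1r1 on the same strand, was at 3.22, 3.97, 4.26, 4.36, 2.00 and 3.03 CPM in RANKL replicates 1 to 6. In RANKL+Dex replicates 1 to 6 it was at 9.48, 14.1, 11.4, 8.85, 9.42 and 8.99 CPM, above every RANKL library (3.01-fold, 1.59 ± 0.17, edgeR adjusted p = 5.5e-06). Its ligand gene Il36g, listed as Il1f9, moved the other way, from 12.0004, 11.7, 10.6, 11.4, 12.1 and 8.02 CPM to 5.14, 6.69, 5.39, 4.26, 6.22 and 5.68 CPM (−0.97 ± 0.12, adjusted p = 2.3e-05). All 6 RANKL+Dex libraries were below all RANKL libraries. Sigirr, a receptor that dampens interleukin-1 signalling, was at 1.68 ± 0.107 and 1.49 ± 0.306 CPM (−0.16 ± 0.16, adjusted p = 0.567).

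On chromosome 1 the receptor genes Il1r2, Il1r1, Il1rl2, Il1rl1 and Il18rap lie in a row on the plus strand between 40113239 and 40590865. Il1r1 and Il1rl2, which are neighbours in this row, rose. Il1rl1, which encodes the interleukin-33 receptor, had 33 counts in RANKL and 21 in RANKL+Dex, and Il18rap, the accessory chain of the interleukin-18 receptor, had 56 and 20. Both were below the count filter. On chromosome 2, Il1f9 (24076488 to 24083580) and Il1rn, which both fell, lie on the plus strand with Il1f6 between them (3 and 7 counts). Il33 had 5 counts in each group. Il18r1 was not analysed here.

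Among inflammasome sensors, adaptors and licensing factors P2rx7 rose and Gbp2 fell. Of 22 tested 2 rose, 2 fell and 18 did neither, which is 18.2% called beside 15.5% of all tested genes, and the median log2 fold change was −0.05. P2rx7, which encodes the ATP-gated channel that triggers NLRP3, was at 34.3 ± 2.81 CPM in RANKL and rose to 43.4 ± 5.08 CPM (0.34 ± 0.07, edgeR adjusted p = 0.0044). Gbp2, an interferon-induced GTPase gene, fell from 0.893 ± 0.196 to 0.362 ± 0.0887 CPM (−1.27 ± 0.25, adjusted p = 0.0019). Gbp2 passed the count filter through its RANKL libraries alone (6 of 6 against 0 of 6 in RANKL+Dex), so it could be tested only because it was high there. Nek7, a kinase that NLRP3 needs, rose by a small margin (0.15 ± 0.05, adjusted p = 0.0487) and the sensor gene Nlrp1b fell (−0.65 ± 0.21, adjusted p = 0.0491). The Nek7 and Nlrp1b calls were marginal: the list count was 2 without RANKL replicate 4, without RANKL+Dex replicate 2, 4, 5 or 6, and without both libraries of batch 2, 3, 4, 5 or 6. Nek7 also ended without RANKL replicate 3 or 5, and Nlrp1b without RANKL replicate 1 or 6, RANKL+Dex replicate 3 or batch 1, with adjusted p of up to 0.184 and 0.169. With no filter on low counts Nek7 was at 0.0644. Naip6, a sensor of bacterial flagellin, passed with the batch as a block (edgeR adjusted p = 0.0189, against 0.271 without). Pycard, which encodes the adaptor ASC between NLRP3 and caspase-1, was at 14.2 ± 1.58 and 14.2 ± 0.795 CPM (0.01 ± 0.08, adjusted p = 0.966).

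Genes for processing, pore formation and release had 15 tested members, of which 2 rose, 5 fell and 8 did neither (median −0.04), or 46.7% called beside 15.5% of all tested genes. The neutrophil protease gene Prtn3 fell from 99 to 14 counts in all (−2.71 ± 0.39, edgeR adjusted p = 1.4e-04), and Serpinb9, which encodes a protease inhibitor, from 7.02 ± 0.603 to 5.27 ± 0.427 CPM (−0.42 ± 0.09, adjusted p = 0.0049). Prtn3 too passed the filter through RANKL alone (6 of 6 libraries against 0 of 6). The inhibitor gene Serpinb2 reached the filter level in 5 RANKL and 2 RANKL+Dex libraries. Prtn3 and the untested Elane are also neutrophil markers, a list whose share of counts is given above. In that list 8 of 9 tested genes fell, beside 7.55% of all tested genes. Its genes Ltf and Mpo had RANKL+Dex medians of 0.391 and 0.272 CPM, under the filter level of 0.492 CPM. Like Prtn3, they could be tested only because they were high in RANKL. Casp8, a caspase that can cut interleukin-1 beta, rose by 0.12 ± 0.04 (adjusted p = 0.0372) and Capn1, a calpain gene, by 0.15 ± 0.04 (adjusted p = 0.0296), on the log2 scale. The other 3 that fell are named with their values known: Gsdmd, the pore protein that caspase-1 cuts, from 123 ± 3.89 to 110 ± 8.26 CPM (−0.16 ± 0.05, adjusted p = 0.0247), the protease gene Ctsc (−0.22 ± 0.05, adjusted p = 0.0135) and the inhibitor gene Serpinb2 (−1.13 ± 0.35, adjusted p = 0.0363). Ninj1, which encodes the protein of membrane rupture, was at 235 ± 16.6 and 274 ± 36.9 CPM (0.22 ± 0.07, adjusted p = 0.0511) and passed with the batch as a block (7.8e-04). It passed too without RANKL replicate 2, RANKL+Dex replicate 5 or 6, or batch 5 (0.0231 to 0.0427), with the size factors of DESeq2 (0.0481), in DESeq2 itself (0.0250) and with no filter (0.0210). With no filter the calls of Casp8 (0.115) and Capn1 (0.0599) ended. The count of 7 was 4 without RANKL replicate 2, RANKL+Dex replicate 3 or batch 2, 4 or 6, and 3 without batch 3. With a filter of 1 CPM in 6 libraries it was 5, with 2 higher and 3 lower. The highest adjusted p among samples left out was 0.101 for Casp8, 0.116 for Capn1, 0.0975 for Gsdmd and 0.102 for Serpinb2.

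**Figure D5:**
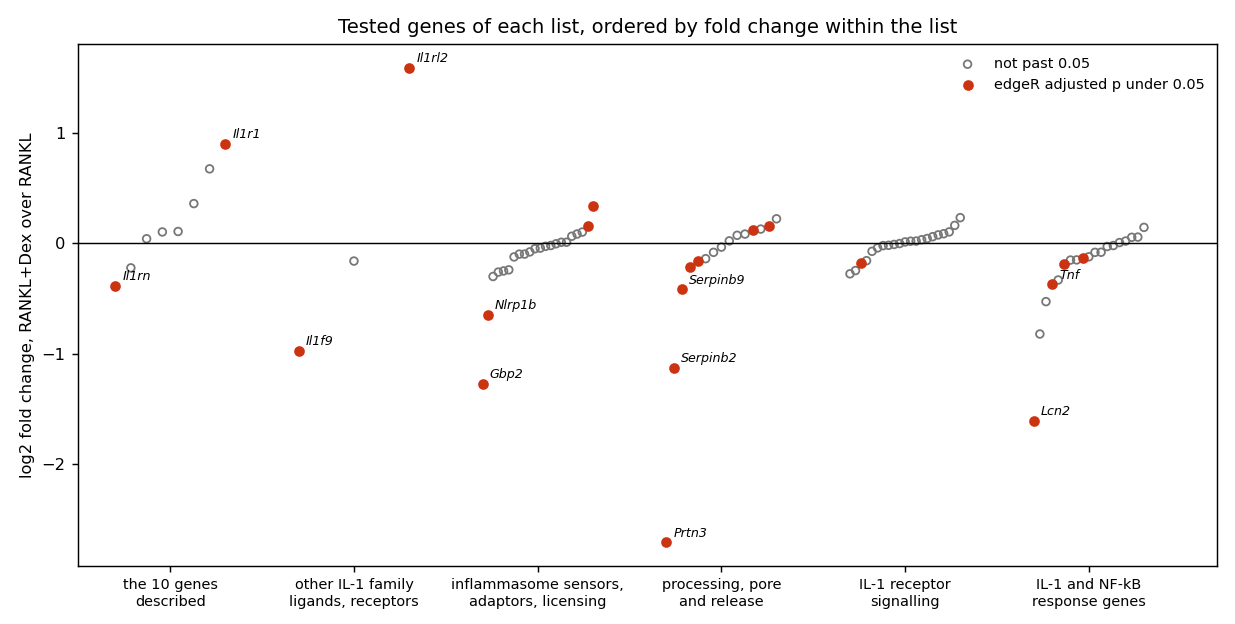
Log2 fold change (y axis) of the tested genes of each list (x axis, ordered by fold change within a list), filled where the edgeR adjusted p was under 0.05. In the list of receptor signalling genes 1 of 21 is filled, and Il1rl2 (1.59) is the highest point of the plot.

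Of the signalling genes downstream of the receptor, Irak1 fell. Of 21 tested, 1 fell and 0 rose, or 4.76% called beside 15.5% of all tested genes, and the median log2 fold change was 0.01. Irak1, a kinase recruited to the activated receptor, fell from 146 ± 4.798 to 129.5 ± 3.12 CPM (−0.18 ± 0.03, edgeR adjusted p = 0.0017). With the batch as a block 3 of the 21 passed, beside 21.8% of all tested genes with that block. Ikbkg, a subunit of the IkB kinase complex (edgeR adjusted p = 0.0420, against 0.113 without), and the ubiquitin ligase gene Peli2 (0.0339, against 0.324) then passed as higher. Ikbkg passed too without RANKL+Dex replicate 5 (0.0405). The count was 2 without RANKL replicate 1, without RANKL+Dex replicate 1 or 5, and without batch 1.

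Genes that interleukin-1 and NF-kB induce gave 4 lower, 0 higher and 15 with neither call among 19 tested, with a median of −0.12. That is 21.1% called, beside 15.5% of all tested genes in either direction and 7.55% lower. Lcn2, which encodes an iron-chelating lipocalin and is also a neutrophil marker, fell from 2.92 to 0.952 CPM (−1.61 ± 0.25, edgeR adjusted p = 2.7e-04). Tnf was at 10.6 ± 1.14 CPM in RANKL and 8.21 ± 0.992 in RANKL+Dex (−0.37 ± 0.09, adjusted p = 0.0134, and 0.0717 without batch 4). The other 2 that fell, named with their values known, were the NF-kB cofactor gene Bcl3 (−0.19 ± 0.05, adjusted p = 0.0261) and the subunit gene Nfkb2 (−0.13 ± 0.04, adjusted p = 0.0380), with up to 0.105 and 0.115 when samples were left out. With no filter Nfkb2 was at 0.0511. The count was 2 without RANKL replicate 4 or 6, RANKL+Dex replicate 2 or 4, or batch 5 or 6, and 1 without batch 4.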

How the data were processed

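The authors deposited raw counts for every gene, with a column for each of 12 libraries. Columns were assigned through the library name in each sample's description. The submitters' processing notes name HISAT2 2.1.0, StringTie 1.3.3b, FastQC 0.11.5, DESeq 1.28.0 and the build GRCm39, without roles. No source used here names the counting program. Coordinates are those of the table.

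Counts were tested with edgeR 4.0.16 (quasi-likelihood, TMM factors, R 4.3.3) after filterByExpr (minimum count 10, minimum total 15), which kept 13775 genes. Adjustment was by Benjamini-Hochberg over all of them, with a threshold of 0.05. Levels are TMM-scaled CPM, and SE was derived from the F statistic. Genes under the filter were compared by exact permutation (924 arrangements, smallest p 0.00216). On simulated counts with 13775 genes the test found 72.7% of 1.5-fold and 91.9% of 2-fold changes, with 11 false calls over both.

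The labels give both groups the same batch numbers 1 to 6, which pairs the libraries. Same-numbered deviations correlated by 0.0502 to 0.421 (mean 0.189, against −0.0377 for different numbers). The fit has no block, and blocked values stand where they change a call. Chi-square per gene between libraries of a group was 3.22 or more, so none repeated another.

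The 10 genes and the 5 lists of pathway genes were chosen with earlier results of these data known. From each list the text names up to 2 higher and 2 lower genes with the smallest p among those that passed. Others are marked as named with their values known, or were needed to explain a blocked count, a marker list or the adaptor between the members. Gene symbols Il36a, Il36b and Il36g were matched to the table by RefSeq synonyms. Alternatives were the block, DESeq2 1.42.0, its size factors in edgeR, no filter, a filter of 1 CPM in 6 libraries, and leaving out each library or batch.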

Additional observations from a re-analysis of the deposited data

Results flagged for a closer look

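Of 98 groups of 6 libraries, 12 held a library whose gap to the nearest other, as a share of the whole range, was above Dixon's critical value. Chance gives about 1 in 20 of groups such a gap. Among the 10 genes described these were Il1r2 in RANKL+Dex replicate 6 (3.55 CPM, nearest 2.30), Il18 in RANKL replicate 1 (0.854 CPM, nearest 0.458), and Nlrp3 in RANKL replicate 5 (9.70 CPM, nearest 13.5) and in RANKL+Dex replicate 2 (15.6 CPM, nearest 11.5). Il1f9 was low in RANKL replicate 6 (8.02 CPM, nearest 10.6). Ctsc was high in RANKL replicate 1 (53.1 CPM) and in RANKL+Dex replicate 2 (43.8 CPM). Nfkb2 was high in RANKL replicate 6 (230.0 CPM), Naip6 high in RANKL+Dex replicate 5 (34.8 CPM) and Ikbkg low in that library (159.6 CPM). The marker gene F13a1 was high in RANKL replicate 4 (2.63 CPM, nearest 1.32) and in RANKL+Dex replicate 2 (9.47 CPM, nearest 7.42).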

How the results depend on the processing

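The calls of Il1r1, Il1rn, Il1rl2, Il1f9 and Irak1 held in every setting run. Leaving out 1 library or batch gave Il1r1 log2 fold changes of 0.84 to 0.97 and Il1rn −0.45 to −0.34. The number of genes changed, all tested genes included, was 1339 without batch 4, 1409 without batch 6 and 2493 without RANKL+Dex replicate 1, against 2139 with all libraries. With the replicate block it was 3000, or 21.8% of the tested genes. The count among the 10 genes was 2 to 3. It was 2 to 2 in the other ligands and receptors, 2 to 4 in inflammasome genes, 3 to 8 in processing genes, 1 to 2 in signalling genes and 1 to 6 in response genes. With the replicate block the signalling count was 3 in place of 1, and calls were gained for Naip6, Ninj1, Ikbkg and Peli2. Among markers, calls were gained as lower for Col1a1, Lyz2, Vcan and Adgre1 and as higher for Fcgr1. The block changed no other call among the genes named. No filter ended the calls of Nek7, Capn1, Casp8 and Nfkb2. Among genes under the filter the count of permutation calls, adjusted over these 2 genes, was 0 to 1 (Il1b). Of 11 marker lists 2 to 3 differed. Estimates near 0 changed sign: Il18bp, at 0.040 with all libraries, was −0.024 without RANKL+Dex replicate 1 and −0.040 without batch 1. Without RANKL replicate 6 it kept its sign and was larger, at 0.107. Pycard, at 0.0076 with all libraries, was −0.018 and −0.025 without RANKL replicate 5 or 6. It was −0.0055 and −0.0065 without RANKL+Dex replicate 2 or 5, and −0.033 and −0.031 without batch 5 or 6. Without RANKL replicate 2 it kept its sign and was larger, at 0.063. The causes were not tested. Depth limits Il1a, Il1b and Il18, which had at most 23 counts in any library.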
